A study of Mus musculus with 4 samples.

Results

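The axon guidance ligands and receptors of mouse were followed here by family, from undifferentiated embryonic stem cells (ESCs) to cells differentiated with retinoic acid (RA). Members were chosen by a rule on gene symbols, with earlier results of these data known. It took every ephrin, Eph receptor, semaphorin, plexin, neuropilin, Slit, Robo, netrin and Unc5 symbol with a numbered or lettered name in the deposited count files. The rule gave 68 members of 24421 gene rows, of which 35 are ligands and 33 are receptors. All 68 had a count in at least 1 library and were tested, and in 67 the normalized counts averaged 5 or more.

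The 4 Illumina TruSeq libraries comprised 2 Undiff and 2 Day4 libraries of R1, an established line of mouse ESCs, and the replicates were grown and treated separately. Undiff was described in the methods of the study as R1 ESCs kept in medium with leukaemia inhibitory factor (LIF), which holds ESCs undifferentiated, and in the labels as embryoid bodies. Day4 was embryoid bodies, which are aggregates of differentiating ESCs, formed without LIF, grown for 4 days and then kept with RA for 4 days, at 2 µM in the series text and 2 mM in the label. According to the methods, the states differed in LIF, aggregation and time as well as in RA, and these cannot be told apart. If Undiff was embryoid bodies, as in the labels, aggregation was shared. No agent or genetic change was shared by both states beyond the R1 line itself.

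Guidance molecules steer growing axons by attraction or repulsion, and the same molecules guide migrating cells and growing blood vessels. Ephrins, which are bound to the membrane, activate Eph receptor tyrosine kinases on touching cells, and signals also run back into the cell that carries the ephrin. Semaphorins act through plexins, with neuropilins as co-receptors for the secreted class 3, while Slits act through Robos, and netrins through Dcc, neogenin and the Unc5 receptors.

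The regulatory sequence at the start of 4 Eph receptor genes shows how different the promoters of closely related members are. They are Epha3, the largest rise among members with a single RefSeq start and a window that touched no annotated exon, Epha2, the largest fall, and the neighbours Epha8 and Ephb2, which lie closest of all member pairs called in opposite directions. Each line holds the 250 bases before the RefSeq start on GRCm38.p6, 5′ to 3′ on the strand of the gene, with CG dinucleotides, the sites of DNA methylation, in capitals.
Epha3, chr16:63864176-63864425, minus strand, 16 CG: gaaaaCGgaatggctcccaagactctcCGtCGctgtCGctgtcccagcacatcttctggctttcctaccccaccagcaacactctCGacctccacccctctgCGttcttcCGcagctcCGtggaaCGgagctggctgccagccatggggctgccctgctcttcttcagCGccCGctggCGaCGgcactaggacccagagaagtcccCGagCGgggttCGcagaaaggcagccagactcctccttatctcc
Epha2, chr4:141300971-141301220, plus strand, 9 CG: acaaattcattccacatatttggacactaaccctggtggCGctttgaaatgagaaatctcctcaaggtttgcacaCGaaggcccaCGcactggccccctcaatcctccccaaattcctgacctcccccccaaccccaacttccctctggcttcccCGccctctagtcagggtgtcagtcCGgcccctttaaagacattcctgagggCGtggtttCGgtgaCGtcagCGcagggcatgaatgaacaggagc
Epha8, chr4:136956817-136957066, minus strand, 46 CG: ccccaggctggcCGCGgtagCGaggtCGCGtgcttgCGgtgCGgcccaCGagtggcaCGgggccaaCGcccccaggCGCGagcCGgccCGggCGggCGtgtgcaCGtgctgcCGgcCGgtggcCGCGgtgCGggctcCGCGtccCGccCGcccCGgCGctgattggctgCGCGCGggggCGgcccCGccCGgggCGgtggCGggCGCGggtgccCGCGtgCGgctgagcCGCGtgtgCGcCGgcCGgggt
Ephb2, chr4:136836013-136836262, minus strand, 20 CG: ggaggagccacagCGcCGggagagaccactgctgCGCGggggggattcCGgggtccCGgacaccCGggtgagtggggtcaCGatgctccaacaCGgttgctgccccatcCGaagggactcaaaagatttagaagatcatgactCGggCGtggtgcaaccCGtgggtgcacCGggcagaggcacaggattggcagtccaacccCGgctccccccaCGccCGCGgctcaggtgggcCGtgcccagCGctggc

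Each library held between 32099074 and 47730944 counts on genes, so that 3 counts, taken as the floor of detection, stood for 0.0615 to 0.0959 CPM (counts per 1000000 counts of the library, adjusted by TMM). The floor and the p-values cover counting error and the spread between 2 cultures a state. All 8 pluripotency markers fell, from summed levels of 3674 and 3771 CPM in Undiff to 22.02 and 18.03 CPM in Day4. Of the other marker lists, 8 of 8 mesenchyme genes rose (134 and 132 to 2328 and 2186 CPM), 7 of 8 endoderm genes rose and 1 fell (35.4 and 42.0 to 552 and 544 CPM), and 3 of 8 muscle genes rose (81.7 and 77.7 to 149.8 and 192 CPM). Most of the endoderm sum in Day4 came from Gata4 and Gata6, at means of 257 and 276 CPM. Afp, Ttr, Sox17, Foxa2, Apoa1 and Cubn had means of 1.38 to 4.19 CPM there. Of the 6 epithelial genes, 1 rose and 3 fell (1935 and 1912 to 403 and 426 CPM). Of 10 neuronal markers, 2 rose and 4 fell, with Dcx at the floor in Undiff, and their summed level went from 332 and 338 to 96.1 and 94.5 CPM. The summed level of the neuronal list was thus lower in Day4 than in Undiff. Most of the neuronal sum in Undiff came from Stmn2 and Tubb3, at means of 198 and 70.2 CPM. In Day4 these had means of 23.4 and 5.02 CPM, while Dcx had risen to a mean of 27.3 CPM. Of 7 neural progenitor markers, 3 rose and 3 fell, with Neurog2 at the floor in Undiff, and their summed level went from 57.8 and 61.5 to 135.6 and 144.7 CPM. Most of that sum was Nes, at means of 45.0 CPM in Undiff and 106 CPM in Day4. Fabp7 and Msi1 also rose, while Sox1, Sox3 and Pax6 fell. Fragments on no gene were 12.1 and 13.2% in Undiff and 7.5 and 7.74% in Day4. The part that this share and any of these cell types had in the results below was not tested.

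A member was called when edgeR's quasi-likelihood test gave a Benjamini-Hochberg adjusted p no higher than 0.05, where its log2 fold change was 1 or more in size and its normalized counts averaged 5 or more. In Day4, 40 members were higher, 14 were lower and 14 were not called. The 54 called members were 79.4% of those tested, against 42.8% of all 19891 genes tested and 51.7% of the genes that passed the minimum count. Members called higher were 58.8% of the members against 22.2% of all genes, whereas those called lower were 20.6% of the members and 20.6% of all genes. The median log2 fold change was 1.84 over the members and -0.03 over all genes tested. In these bulk libraries, fewer cells of a type and less RNA per cell cannot be told apart.

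Changes of the members were large. Of the 54 called members, 38 changed by 2 or more on the log2 scale, as did 4795 of all 8521 called genes. Over everything tested, these were 38 of 68 members and 24.1% of genes. All 9 members that changed by 5 or more were higher in Day4. That count was taken for the members only, with no share over all genes beside it. Called members that rose had a median log2 fold change of 3.34, against 2.18 for all genes called higher, and those that fell had a median of -2.51, against -2.34. The 2 libraries of Undiff and the 2 of Day4 did not overlap in CPM for 64 members (94.1%), against 85.4% of all genes tested, and the overlapping members were Nrp2, Ntn1, Ntn5 and Sema6b. By mean CPM, 26 members reached 10 CPM in Undiff and 46 in Day4, while 4 reached 100 CPM in Undiff and 14 in Day4. Under 1 CPM in Undiff and at 10 CPM or more in Day4 were 8 members (Epha3, Ntn3, Plxna4, Robo2, Sema3a, Sema3d, Sema6d and Unc5c), and 0 members went the opposite way. These counts by level were taken for the members only, so that no share over all genes stands beside them. Replicates were close, with a median coefficient of variation of 4.09% in Undiff and 3.0% in Day4 over the 46 members at 1 CPM or more in every library.

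**Figure D1:**
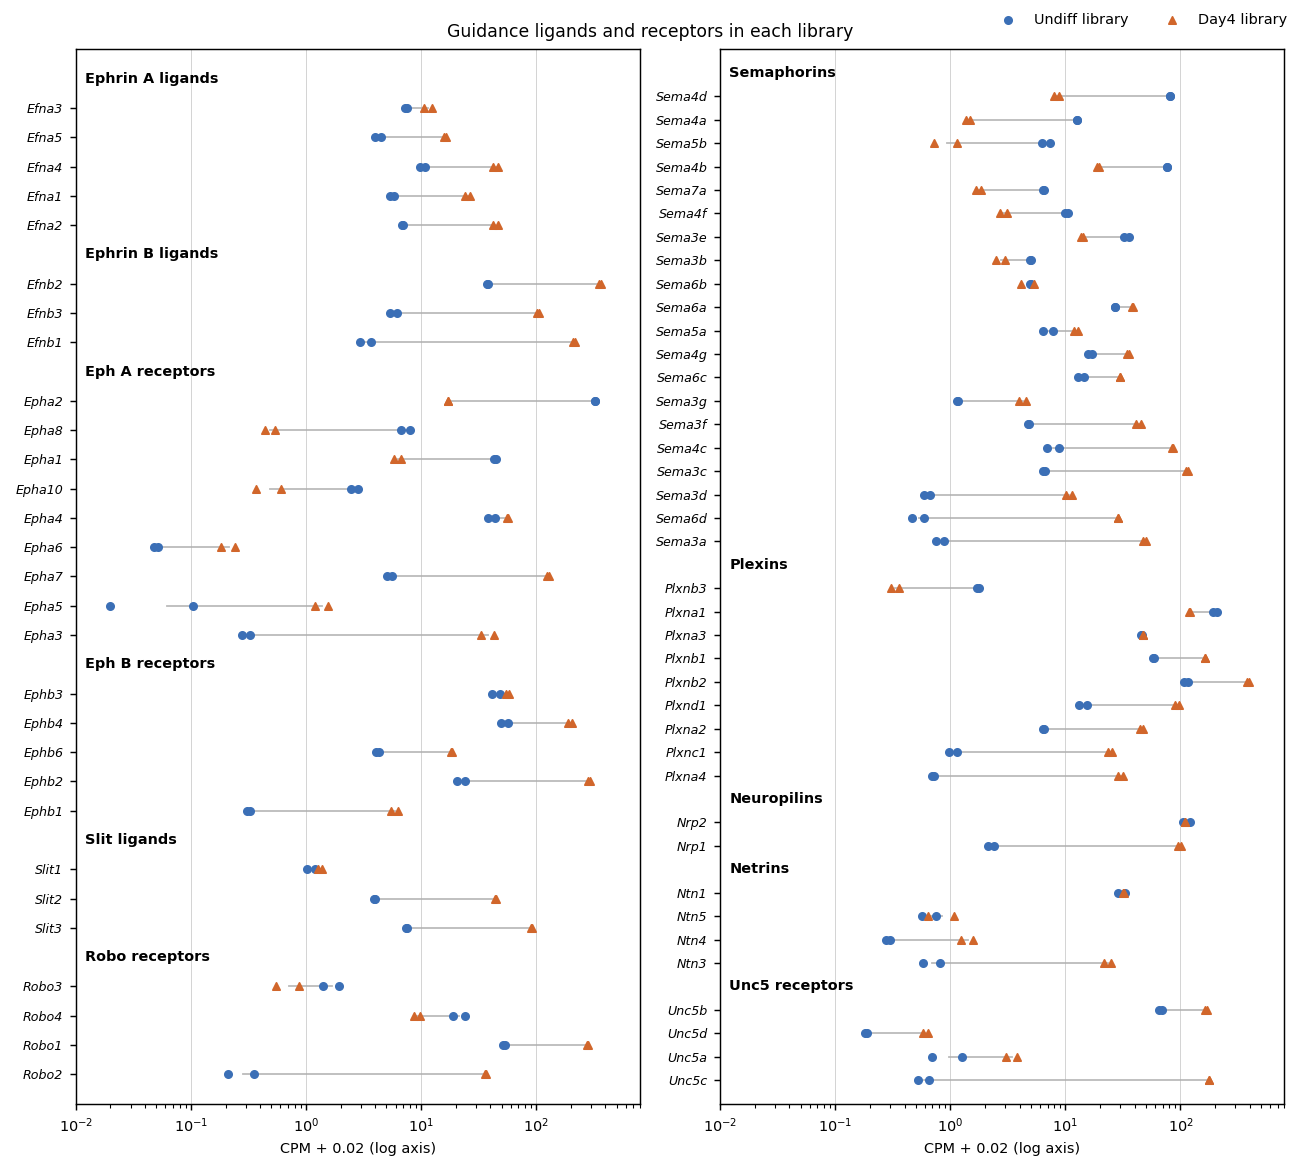
Level of each of the 68 members in each library, in CPM plus 0.02 on a log axis, with Undiff libraries as circles, Day4 libraries as triangles and a grey line between the state means, grouped by family. The libraries of the states lie apart for 64 members and overlap for Nrp2, Ntn1, Ntn5 and Sema6b.

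Ligands and receptors were called in like numbers, with 20 ligands higher and 7 lower of 35, and 20 receptors higher and 7 lower of 33. The families differed in how uniform they were. All 3 ephrin B ligands and all 4 Unc5 receptors rose, and no ephrin A, Eph B, Slit, netrin or neuropilin member was called lower. Eph A receptors (3 higher, 4 lower), semaphorins (9 higher, 7 lower) and Robo receptors (2 higher, 2 lower) went both ways. Whether families differed from one another was not tested.

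**Figure D2:**
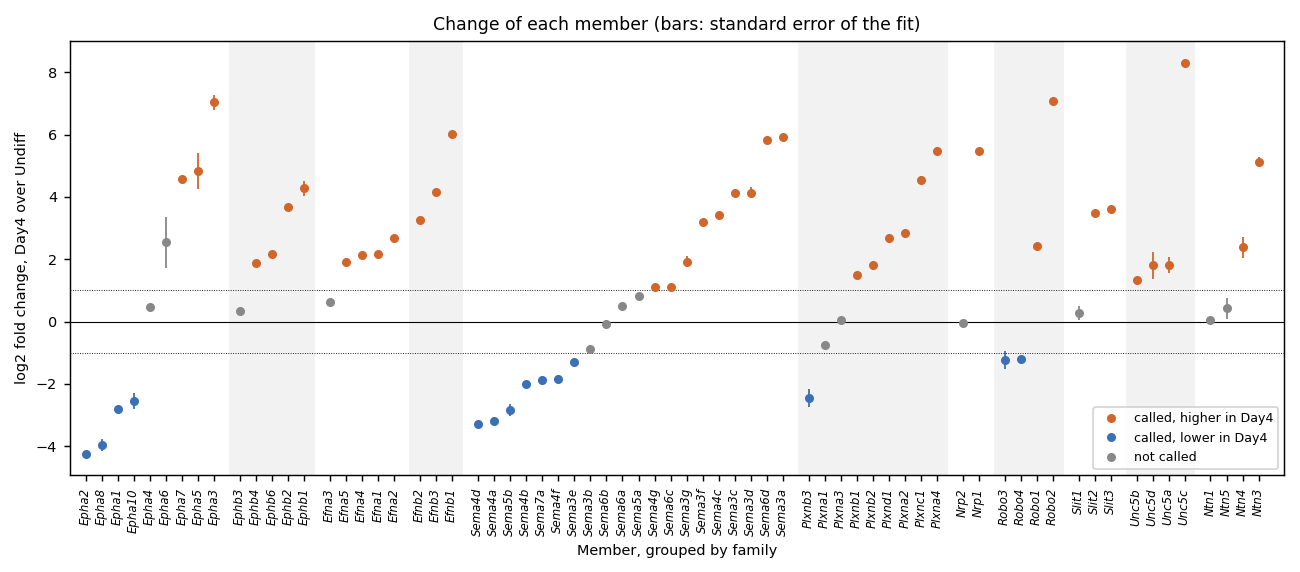
Log2 fold change of each member, Day4 over Undiff, from edgeR, with bars for the standard error, ordered by value within each family, and dotted lines at 1 and -1. Eph A receptors, semaphorins and Robos have called members on both sides of 0, while every ephrin B and Unc5 point lies above 1.

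Among the ephrin A ligands, which are tied to the membrane by a lipid anchor, 4 of 5 rose with log2 fold changes of 1.93 to 2.68, and Efna3 was not called at 0.63. Efna4 was the most abundant ephrin per kilobase of merged exons in Undiff, behind Efnb2 when the longest transcript was used, and its 9.69 and 10.7 CPM became 46.5 and 42.4 CPM in Day4 (log2 fold change 2.12, SE 0.08, adjusted p = 1.8e-11). Efna5 rose least of the called ephrins, from 4.48 and 3.93 CPM to 15.7 and 16.4 CPM (log2 fold change 1.93, SE 0.10, adjusted p = 6.37e-10). Both ligands stayed within a narrow band in each state, well apart from the other state.

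The ephrin B ligands, which cross the membrane and can signal into their own cell, rose more than any ephrin A ligand. Efnb1, which takes part in drawing boundaries between cell groups, rose from 3.62 and 2.91 CPM in Undiff to 217 and 208 CPM in Day4 (log2 fold change 6.01, SE 0.08, adjusted p = 1.47e-15). Efnb2, a marker of arterial endothelium, rose from 37.5 and 38.0 CPM to 367 and 354 CPM (log2 fold change 3.26, SE 0.05, adjusted p = 3.51e-15). Efnb3, known as a midline barrier to axons of the spinal cord, rose from 6.12 and 5.31 CPM to 105 and 101 CPM (log2 fold change 4.16, SE 0.07). Per kilobase of merged exons, Efnb2 held 66.8% of the ephrin B level in Undiff and Efnb1 11.4%, against 35.9% and 42.0% in Day4. With the longest transcript as the length, Efnb2 stayed ahead of Efnb1 in Day4, at 43.5% against 37.7%.

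The Eph A receptors exchanged their leading members. Epha2, the epithelial Eph receptor, was the member with the highest level per length in Undiff and the largest fall of all 68. Its 327 and 323 CPM in Undiff became 17.1 and 17.1 CPM in Day4, 19.0-fold lower (log2 fold change -4.25, SE 0.05, adjusted p = 6.9e-16), alongside the fall of all 8 pluripotency markers. Epha1 fell from 44.7 and 43.3 CPM to 5.83 and 6.67 CPM (log2 fold change -2.80, SE 0.08), and 6.01% of its merged exons overlap those of Zyx, so that some fragments could belong to either gene. Epha8 fell from 8.05 and 6.65 CPM to 0.418 and 0.513 CPM (log2 fold change -3.96, SE 0.20), and Epha10, which lacks kinase activity, fell by 2.55 on the log2 scale.

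Rising against these, Epha3 went from 0.306 and 0.256 CPM in Undiff to 43.2 and 32.9 CPM in Day4 (log2 fold change 7.04, SE 0.24, adjusted p = 7.99e-12). Epha7, a repulsive receptor known from the retina and cortex, rose from 5.01 and 5.59 CPM to 125 and 129 CPM (log2 fold change 4.59, SE 0.07, adjusted p = 5.63e-15). Epha5 was at the floor in Undiff, with 3 and 0 counts, and had 42 and 74 counts in Day4, so that it was at least 15.0-fold higher there. Epha4, which binds ephrins of both classes, was not called at 0.46 (37.8 and 44.0 CPM against 55.4 and 57.1 CPM). Epha6 had 1 and 1 counts in Undiff and 8 and 8 in Day4, under the minimum count for a call.

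By level per length, Epha2 made up 78.7% of the Eph A level in Undiff and 12.3% in Day4, and Epha7 made up 0.608% and 43.2%. Epha3 went from 0.0366% to 14.7% and Epha4 from 5.75% to 23.5%. The summed Eph A level was the only family sum that was lower in Day4, at 88.3 ± 0.40 CPM per kilobase in Undiff and 29.8 ± 0.25 in Day4 (SD, n = 2), a ratio of 0.337.

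Of the Eph B receptors, 4 of 5 rose and Ephb3 was not called, at 0.33. Ephb4, the receptor that marks venous endothelium and binds ephrin B2, led the Eph receptors in Day4 by level per length, and rose from 57.0 and 49.9 CPM to 203 and 189 CPM (log2 fold change 1.87, SE 0.06, adjusted p = 6.34e-12). Ephb2, which guides axons across the brain midline, rose from 24.1 and 20.5 CPM to 292 and 280.1 CPM (log2 fold change 3.68, SE 0.06). Ephb1 rose by 4.27 and the kinase-dead Ephb6 by 2.15 on the log2 scale. Ephb4 kept its share of the Eph B level, at 54.5% and 53.4%, while Ephb2 went from 8.35% to 28.7% and Ephb3 from 31.7% to 10.7%.

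**Figure D3:**
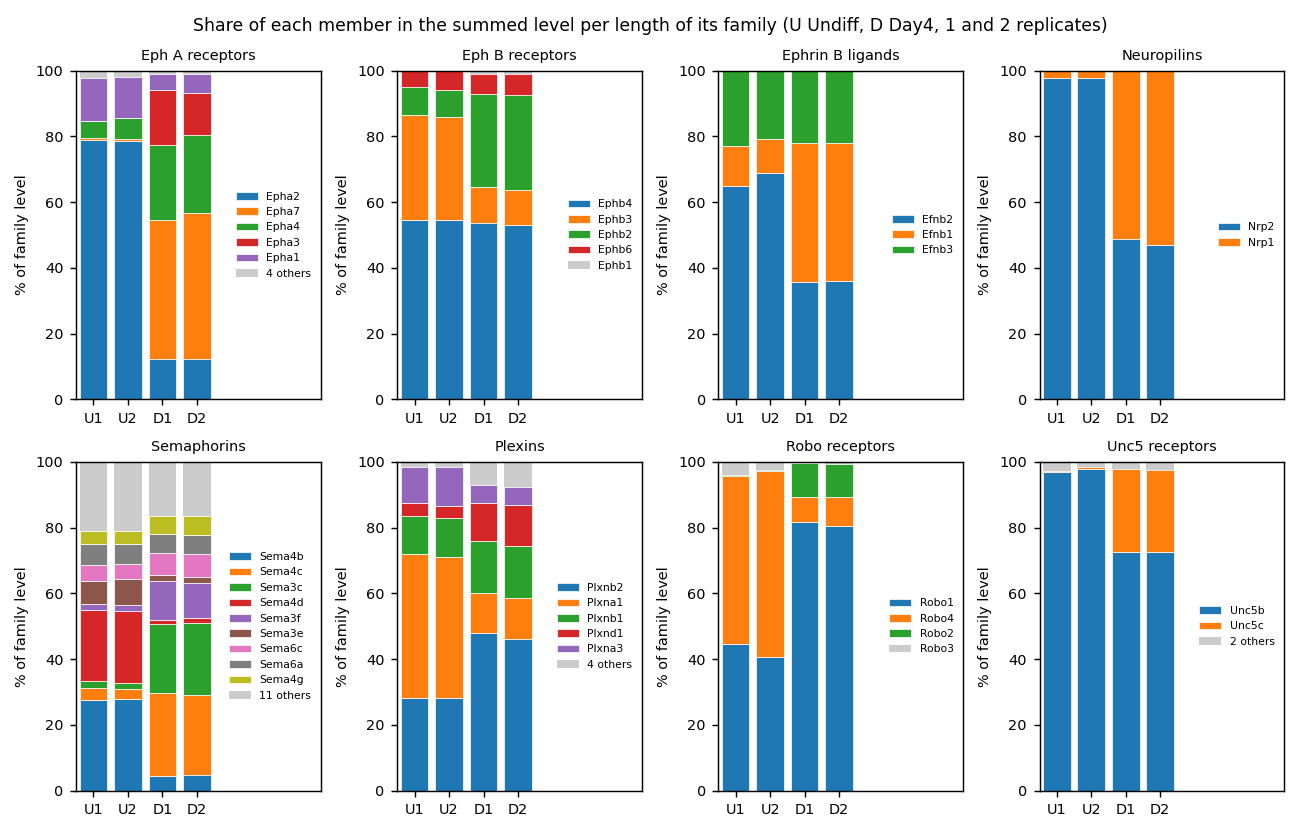
Share of each member in the summed level per length of its family, as a percentage for each library (U Undiff, D Day4, replicates 1 and 2), for the 8 families drawn, with rarer members joined in grey. Epha2 fills most of the Eph A bars in Undiff and a small part in Day4, and Nrp1, Robo1 and Unc5c take larger parts in Day4.

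Semaphorins were the largest family, with 9 of 20 higher, 7 lower and 4 not called. Of the 7 secreted class 3 semaphorins, 5 rose, Sema3e fell and Sema3b was not called, while of the 6 class 4 semaphorins, which span the membrane, 4 fell and 2 rose. Class 6 had 2 higher and 2 not called, class 5 had Sema5b lower and Sema5a not called, and the lipid-anchored Sema7a fell by 1.88 on the log2 scale. The nearest values to the fold threshold were 1.11 for Sema4g inside it and -0.89 for Sema3b outside it.

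Sema3a, the classical repellent that collapses growth cones, had the largest rise of the semaphorins, from 0.863 and 0.735 CPM to 47.4 and 49.7 CPM (log2 fold change 5.91, SE 0.11, adjusted p = 3.45e-14). Sema3c, needed for septation of the cardiac outflow tract, rose from 6.68 and 6.33 CPM to 111 and 115 CPM (log2 fold change 4.12, SE 0.07). Sema3e, which signals through Plxnd1 without a neuropilin, fell from 32.5 and 36.0 CPM to 13.6 and 14.1 CPM (log2 fold change -1.30, SE 0.07, adjusted p = 1.36e-09). Within the class, Sema3d rose by 4.14, Sema3f by 3.18 and Sema3g by 1.92 on the log2 scale. Per length, no other secreted semaphorin was as abundant in Undiff as Sema3e.

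In class 4, Sema4d, known as CD100 on immune cells, fell from 81.5 and 80.7 CPM to 7.95 and 8.70 CPM (log2 fold change -3.28, SE 0.07, adjusted p = 5.05e-14). Sema4b, which had the highest level per length of the semaphorins in Undiff, fell from 76.3 and 76.0 CPM to 18.7 and 19.7 CPM (log2 fold change -1.99, SE 0.06, adjusted p = 1.46e-12). Sema4c, a ligand of Plxnb2, took the lead in Day4, rising from 8.74 and 6.97 CPM to 86.9 and 83.5 CPM (log2 fold change 3.43, SE 0.08, adjusted p = 2.4e-13). The share of the semaphorin level went from 27.7% to 4.57% for Sema4b, from 21.6% to 1.46% for Sema4d, from 3.50% to 24.9% for Sema4c and from 1.87% to 21.3% for Sema3c. Despite the many changes in both directions, the summed level of the family moved only from 48.8 ± 0.58 to 74.5 ± 0.22 CPM per kilobase (SD, n = 2), a ratio of 1.53.

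Of the plexins, the main receptors of semaphorins, 6 of 9 rose, 1 fell and 2 were not called. Plxna1 led in Undiff by level per length and was not called, since its change from 209 and 193 CPM to 118 and 120.1 CPM stayed within the fold threshold (log2 fold change -0.75, SE 0.05, adjusted p = 5.41e-09). Plxnb2 led in Day4, rising from 115 and 108 CPM to 396 and 381 CPM (log2 fold change 1.80, SE 0.05, adjusted p = 5.58e-13). Plxna4, a partner of neuropilins in sensory and sympathetic neurons, had the largest rise, from 0.668 and 0.703 CPM to 28.9 and 31.8 CPM (log2 fold change 5.47, SE 0.13, adjusted p = 3.64e-13).

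Plxnb3 was the only plexin that fell, from 1.67 and 1.76 CPM to 0.335 and 0.287 CPM (log2 fold change -2.46, SE 0.29, adjusted p = 3.48e-06), while its subfamily members Plxnb1 and Plxnb2 rose. Plxna3 differed by 0.05 on the log2 scale and was not called, with 45.7 and 46.0 CPM against 47.4 and 47.6 CPM. Plxnc1 rose by 4.55, Plxna2 by 2.84, Plxnd1 by 2.69 and Plxnb1 by 1.5.

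The 2 neuropilins behaved differently. Nrp1, which binds Sema3a and is also a co-receptor for vascular endothelial growth factor, rose from 2.09 and 2.37 CPM to 95.0 and 101 CPM (log2 fold change 5.46, SE 0.09, adjusted p = 7.42e-15). Nrp2, which binds Sema3f, had 105 and 121 CPM in Undiff and 110.1 and 109 CPM in Day4, so that the states overlapped (log2 fold change -0.05, SE 0.06, adjusted p = 0.457), and its sign turned when library totals replaced TMM or Undiff replicate 2 was left out. Nrp2 held 97.7% of the neuropilin level per length in Undiff and Nrp1 2.33%, and in Day4 they held 48.0% and 52.0%. With the longest transcript as the length, Nrp1 held 3.50% and 62.3%.

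Where a semaphorin and its known receptor were both members, they did not always move the same way. Sema3a and Nrp1 both rose, by 5.91 and 5.46 on the log2 scale, and Sema4c rose together with Plxnb2. Sema4d fell by 3.28 while its receptor Plxnb1 rose by 1.5, Sema7a fell by 1.88 while Plxnc1 rose by 4.55, and Sema3e fell by 1.30 while Plxnd1 rose by 2.69. These pairs were picked from textbook knowledge after the values were known and have no test.

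Of the Slit ligands, large secreted repellents, Slit2 and Slit3 rose and Slit1 was not called. Slit3, the most abundant Slit per length in both states, rose from 7.54 and 7.32 CPM to 91.6 and 89.4 CPM (log2 fold change 3.60, SE 0.07, adjusted p = 2.25e-14). Slit2 rose from 3.95 and 3.87 CPM to 43.5 and 44.4 CPM (log2 fold change 3.49, SE 0.08, adjusted p = 2.02e-13). Slit1 had 1.17 and 0.991 CPM in Undiff and 1.26 and 1.35 CPM in Day4 (log2 fold change 0.27, SE 0.24).

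The Robo family went both ways. Robo1 and Robo2, the receptors through which Slits repel axons, rose, with Robo1 going from 51.4 and 53.6 CPM to 284 and 276 CPM (log2 fold change 2.41, SE 0.05, adjusted p = 4.18e-14) and Robo2 from 0.334 and 0.192 CPM to 36.9 and 35.9 CPM (log2 fold change 7.07, SE 0.15, adjusted p = 8.01e-14). Robo4, known from endothelium, fell from 18.9 and 24.1 CPM to 8.62 and 9.72 CPM (log2 fold change -1.21, SE 0.11, adjusted p = 3.06e-07). Robo3, which controls midline crossing of commissural axons, fell from 1.92 and 1.37 CPM to 0.530 and 0.841 CPM (log2 fold change -1.23, SE 0.28, adjusted p = 0.00145). The log2 fold change of Robo3 was -0.95 without Undiff replicate 1 and -0.98 without Day4 replicate 1, both short of the fold threshold.

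Of 8 endothelial markers, 5 rose and 2 fell, and their summed level went from 215 and 210.2 CPM to 363 and 367 CPM. Cdh5, the endothelial cadherin, rose from 1.20 and 1.44 CPM to 71.2 and 71.3 CPM (log2 fold change 5.76, SE 0.09), and Emcn was at the floor in Undiff, while Pecam1, which was abundant in Undiff, fell by 1.19 on the log2 scale. Robo4 thus moved with Pecam1 and Tek and against Cdh5, Kdr, Tie1, Emcn and Esam, whereas Nrp1, Efnb2 and Unc5b moved with the latter. The part of endothelial cells in these members' levels was not tested.

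By merged exon length Robo4 held 54.0% of the Robo level in Undiff and 8.28% in Day4, and Robo1 held 42.6% and 81.0%. With the longest transcript as the length, Robo1 led in Undiff as well, at 59.7% against 37.2% for Robo4, which held 4.29% in Day4.

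Netrins, secreted cues that attract or repel depending on the receptor, had 2 of 4 members higher and 2 not called. Ntn1, the netrin of the floor plate and the most abundant netrin per length in both states, had 28.8 and 33.0 CPM in Undiff and 32.1 and 31.8 CPM in Day4, with overlapping states (log2 fold change 0.05, SE 0.07, adjusted p = 0.508), and its sign turned without Undiff replicate 1. Ntn3 rose from 0.557 and 0.799 CPM to 24.8 and 21.8 CPM (log2 fold change 5.11, SE 0.16, adjusted p = 3.25e-12), and 1.74% of its merged exons overlap those of Tbc1d24 on the same strand. Ntn4, a netrin of basement membranes, rose by 2.39 on the log2 scale at levels of 0.256 to 1.56 CPM. Ntn5 was not called at 0.43, with overlapping states, and 23.42% of its merged exons overlap those of Sec1. Ntn3 went from 2.43% to 43.8% of the netrin level per length while Ntn1 went from 90.9% to 49.0%.

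All 4 Unc5 receptors, which turn netrin signals into repulsion, were called higher in Day4, and Unc5d alone lost its call with DESeq2 without shrinkage (adjusted p = 0.0507). Unc5c had the largest rise of all 68 members, from 0.501 and 0.639 CPM to 176 and 179 CPM, 311-fold higher (log2 fold change 8.28, SE 0.09, adjusted p = 5.4e-16). Unc5b, also known from endothelium, led the family per length in both states and rose least, from 68.6 and 64.5 CPM to 164 and 172 CPM (log2 fold change 1.34, SE 0.05, adjusted p = 1.93e-11). Unc5a rose by 1.82 and Unc5d by 1.80 (SE 0.44, adjusted p = 0.00232) on the log2 scale, the latter at under 1 CPM in every library. The share of Unc5c in the Unc5 level went from 0.275% to 25.1%, and that of Unc5b from 97.5% to 72.6%. With the longest transcript as the length, Unc5c held 0.510% and 38.4%, and Unc5b held 59.7% in Day4.

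Summed over each family per kilobase of merged exons, 10 of 11 families were higher in Day4. The ephrin B ligands went from 8.25 ± 0.27 to 146.5 ± 4.1 CPM per kilobase (SD, n = 2), a ratio of 17.8, and the Slits from 1.56 ± 0.050 to 16.9 ± 0.22, a ratio of 10.8. The ephrin A ligands (4.26), Eph B receptors (3.74), Unc5 receptors (3.39), Robos (2.79), plexins (2.09), neuropilins (1.97) and netrins (1.92) had smaller ratios of Day4 to Undiff. The 68 members together went from 269.6 ± 3.5 to 612.5 ± 12 CPM per kilobase, a ratio of 2.27. In Undiff the highest single levels were those of Epha2 (69.5), Plxna1 (22.2) and Plxnb2 (14.4), and in Day4 those of Efnb1 (61.6), Efnb2 (52.6) and Plxnb2 (50.3), all in CPM per kilobase of merged exons. With the longest transcript, Sema4b (19.3) took the place of Plxnb2 in Undiff, and Efnb2 came before Efnb1 in Day4.

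**Figure D4:**
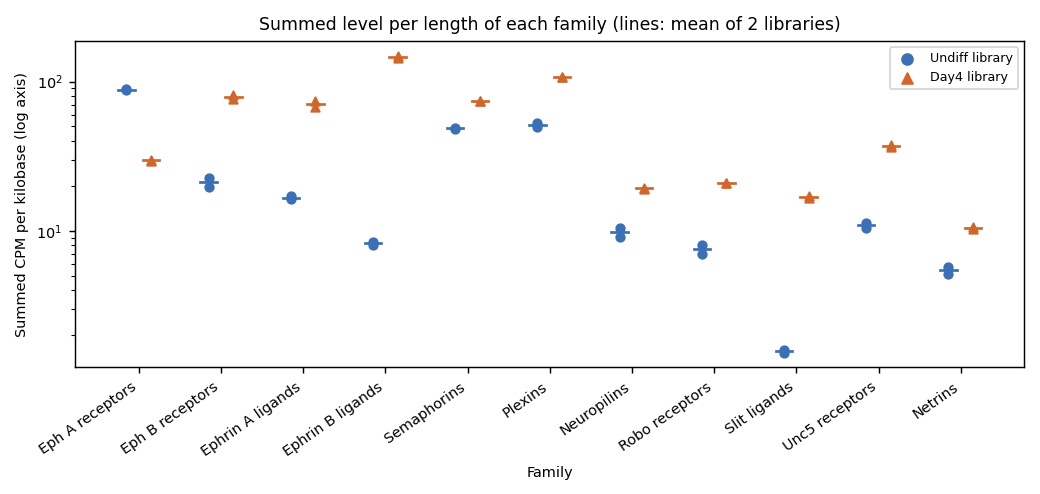
Summed level of each family in CPM per kilobase of merged exons on a log axis, with Undiff libraries as circles, Day4 libraries as triangles and lines at the mean of 2 libraries. The Eph A receptors are lower in Day4 (29.8 against 88.3) and the other 10 families are higher, most of all the ephrin B ligands.

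Other genes of these pathways, given as a list of 69 receptors, ligands and cytoplasmic effectors that the rule of symbols leaves out, had 37 higher, 6 lower and 26 not called, where 22.2% of all genes tested were higher and 20.6% lower, with a median log2 fold change of 1.09 against -0.03 over all genes tested. Of 14 receptors and co-receptors, 8 rose and 1 fell, and of 8 further ligands, 6 rose. Of the effectors, 4 of 11 for Eph receptors, 10 of 18 for semaphorins and plexins, 5 of 10 for Slits and Robos and 4 of 8 for netrins rose, with 0, 1, 1 and 3 lower. Neogenin (Neo1) and Dcc, netrin receptors outside the Unc5 family, also rose. Neo1 went from 75.2 and 72.8 CPM to 317 and 328 CPM (log2 fold change 2.13). Dcc went from 0.111 and 0.160 CPM to 1.40 and 1.09 CPM (log2 fold change 3.15). Dscam, another receptor of this list, was not called, with 7 and 2 counts in Undiff and 11 and 7 in Day4 (log2 fold change 0.66).

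The highest called changes of this list were those of Trim9, a ubiquitin ligase that binds Dcc, which had no count in Undiff and was at least 37.8-fold higher in Day4, and Lrrc4c, the ligand of netrin-G1, at the floor in Undiff and at least 104-fold higher. Rgma, a ligand of neogenin, rose by 5.39, the adhesion molecule Ncam1 by 4.4 and the Hedgehog co-receptor Boc by 4.25 on the log2 scale. The lowest were the axonal adhesion molecule L1cam at -4.63, Trim67 at -2.73, the semaphorin effector Crmp1 at -2.70 and the actin regulator Enah at -1.79. Of the 10 neuronal markers, Tubb3, Stmn2, Elavl3 and Gap43 fell too, Dcx and Isl1 rose, and Elavl4, Map2, Nefl and Nefm were not called, and their part in these values was not tested.

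Members lie in small clusters on several chromosomes, and 19 pairs of members lay within 2 Mb of each other on GRCm38. Both were higher in 5 pairs, both were lower in 1 pair, the members went opposite ways in 6 pairs, and a member was not called in 7 pairs. Pairs share members, as Sema4a went opposite to both Efna1 and Efna4, and Sema3e to both Sema3a and Sema3d. Of all members, 58.8% were higher and 20.6% lower, and whether the pairs depart from these shares was not tested. The closest pair called opposite was Epha8 (chr4:136929419-136956816, minus strand) and Ephb2 (chr4:136647539-136835988, minus strand), 93.4 kb apart, with log2 fold changes of -3.96 and 3.68. On chromosome 5, Sema3e (chr5:14025276-14256689) fell by 1.30 while Sema3a (chr5:13125414-13602565), 422.7 kb away, rose by 5.91. On chromosome 6, Epha1 fell by 2.80 while Ephb6, 738 kb away, rose by 2.15. Robo3 (chr9:37415669-37433246) and Robo4 (chr9:37401897-37415115), on opposite strands and 0.6 kb apart, both fell, and Robo1 (chr16:72308306-73046095) and Robo2 (chr16:73891839-74411825), 845.7 kb apart, both rose. The strand option of the TruSeq gene counts was not named. In GENCODE vM21, the exons of neither Robo3 nor Robo4 overlap those of another counted gene.

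RefSeq promoters of GRCm38.p6 were matched by symbol for 59 of 68 members, with 75 start sites. In the 250 bases before the start, the median number of CG dinucleotides per gene was 18.5 for the 36 members called higher, 9.0 for the 14 called lower and 15.0 for the 9 not called. Over all genes the medians were 14.0 for those called higher, 10.5 for those called lower and 13.0 for the 14502 tested genes with an entry. At least 10 CG dinucleotides were held by 29 of the 36 higher members and 6 of the 14 lower ones. This threshold was applied to the members only, so that no share over all genes stands beside it. Epha8, printed above with 46 CG, was the lower member with the most, and Epha2, with 9, lay at the median of the lower members.

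**Figure D5:**
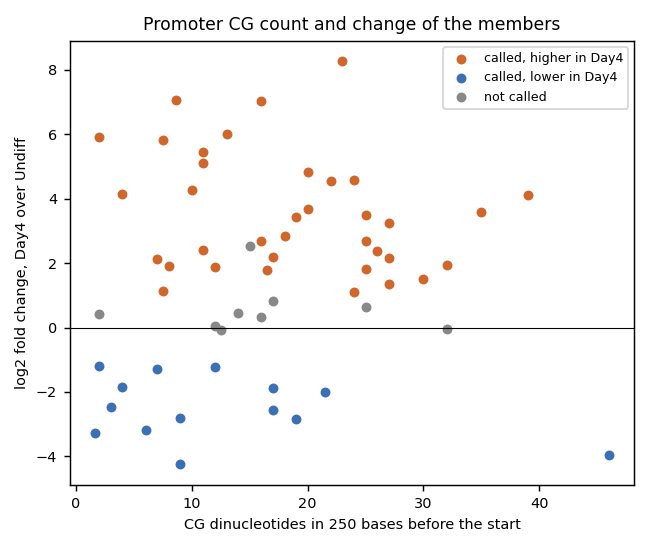
Number of CG dinucleotides in the 250 bases before the RefSeq start, as the mean over start sites, on the horizontal axis, and log2 fold change of Day4 over Undiff on the vertical axis, for the 59 members with an entry. Lower members lie mostly at the left, with a median of 9.0, and Epha8 stands alone at 46.

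The promoters were also searched on both strands for AGGTCA, the hexamer that RA receptors bind. It was found in 11 of 75 member promoters (14.7%), against 14.0% of all 32851 promoters in the table and 12.4% of those of genes tested, and the printed Epha2 sequence holds 1. Direct repeats of this hexamer or its variants (AGTTCA, the form GGGTCA and the form GGTTCA), in any combination, with 1, 2 or 5 bases between them, the arrangements of RA response elements, were found in 0 member promoters and in 0.164%, 0.174% and 0.0883% of all promoters. TATAAA was found in 2 of 75 member promoters (2.67%), in 12.4% of all promoters and in 8.36% of those of genes tested. These counts describe the letters in this window only, and they say nothing of binding there or elsewhere.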

How the data were processed

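RNA of R1 ESCs was measured in 2 Undiff and 2 Day4 Illumina TruSeq libraries, grouped by their labels. The authors used cutadapt for trimming and STAR 2.4.2a for alignment to mm10 (submitters' processing notes) and counted fragments per gene with htseq-count, leaving out those with several alignments, and the deposited values are raw counts per gene symbol. The methods say that strandedness was taken into account and give an option for the Direct RNA samples, and the option used for TruSeq gene counts is not given in the sources used here. Fragments on no gene (7.50 to 13.2%) and ambiguous ones (1.84 to 1.91%) were left out.

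Counts were scaled by TMM and fitted with edgeR 4.0.16 in R 4.3.3 (glmQLFit, glmQLFTest, newer dispersion estimate, no replicate term) over the 19891 genes with any count, with Benjamini-Hochberg adjustment. The thresholds of the report are those of the study. DESeq2 1.42.0, other scalings and filters, and libraries left out were alternatives. The test was checked on simulated data in which 200 of 19525 genes were changed. That check does not cover changes as widespread as those called here. Levels per length divide CPM by merged exons of GENCODE vM21 (GRCm38), matched by symbol for all 68 members.

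Members and lists were chosen with earlier results of these data known. Full statistics are given per family for the called members with the highest and lowest log2 fold change (mean at least 1 CPM) and the most abundant member per length in each state. Of the subfamily members called in opposite directions, only some have full statistics. From the list of other pathway genes, up to 5 called genes at each end with a mean of at least 1 CPM are named. Dcc, Neo1, Dscam and single markers were named after their values were seen. A marker of the neural progenitor list is not reported here.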

Additional observations from a re-analysis of the deposited data

How the results depend on the processing

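Under 14 alternatives to the processing, the counts of members called, in total and by ligand and receptor system, stayed within 1.5 times their values above, with 39 to 41 members higher, 13 to 14 lower and 7483 to 9256 of all genes called. Of the 54 calls, 53 were kept by DESeq2 without shrinkage, 52 in a test against a fold change of 2 (glmTreat), 53 without Undiff replicate 1 and 53 without Day4 replicate 1, and 54 under each other alternative, which included an older edgeR dispersion estimate chosen after seeing the data. The calls lost were Unc5d with DESeq2 without shrinkage (adjusted p = 0.0507), Robo3 and Sema4g with glmTreat (adjusted p = 0.182 and 0.0505), and Robo3 in both cases of a replicate left out. Epha6 was called without the minimum count, and Sema3b without Day4 replicate 1, at -1.01. Signs turned for 4 members that were not called: Nrp2 was 0.0182 with library totals, and over the fits that each leave out 1 library, the lowest and highest values were -0.145 (without Undiff replicate 1) and 0.0518 (without Undiff replicate 2) for Nrp2, -0.0469 (without Undiff replicate 1) and 0.148 (without Undiff replicate 2) for Ntn1, -0.0887 (without Day4 replicate 2) and 0.707 (without Day4 replicate 1) for Ntn5, and -0.275 (without Day4 replicate 1) and 0.0871 (without Day4 replicate 2) for Sema6b. With the longest transcript as gene length, the ratio of Day4 to Undiff was 16.2 for ephrin B ligands, 0.388 for Eph A receptors, 2.47 for neuropilins, 2.19 for plexins, 3.71 for Robos, 1.46 for semaphorins and 4.11 for Unc5 receptors. Of 136 family shares, 92 moved by more than 1 SD with that length. Apart from the changed lengths, the causes were not tested.

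The replicate numbers are shared by the states, but deviations of same-numbered libraries from their state means were not correlated (r = -0.00641 over 16472 genes). Because each state has 2 libraries, whose deviations mirror each other, this value cannot show whether same-numbered cultures shared a batch. With the replicate block in the model, 54 members were called, with 40 higher and 14 lower. With 2 libraries a state, an exact permutation test of a single value cannot go below p = 0.333, and members at under 1 CPM rest on few counts.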
